A study of Mus musculus with 12 samples.

Results

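Control XY gonadal cells (3 libraries) were compared with control XX gonadal cells (2 libraries) after organ culture, gene by gene. A gene entered the comparison when its TPM, a transcript abundance corrected for length and library total, rescaled without the short non-coding RNAs Rpph1, Rmrp and the Snora and Snord families, reached 1 in at least 2 of the 5 libraries. Of 24411 gene symbols in each library, 14596 did so, and the results below concern the 14033 of these that lie on autosomes. The 5 libraries belong to a series of 12.

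Per the labels, the gonads came from Nr5a1-hCD271 mouse embryos, in which a human surface antigen reports the Nr5a1 gene, and RNA was taken from the NR5A1(+) cells. Gonads at E10.8 were explanted together with their aorta, mesonephros and mesenchyme and kept for 19.2 h on filters in DMEM with 10% horse serum. The control groups carry no treatment label. Besides the control XY and control XX cultures, 3 XY cultures with 150 µM deferoxamine (Dfo, an iron chelator) lent their spread to the model. In addition, 2 XY and 2 XX libraries at E11.5 with the same genotype label gave the same comparison without the label of culture. The titles of the E11.5 libraries add WT (wild type), which the titles of the cultures do not carry. Whether the libraries of a group stem from different embryos or litters is not labelled, and each p-value reflects only how far these libraries scatter, which may be technical. The series asks what iron deficiency does to XY gonads, and the control XX cultures show where the XY and XX programs stood in untreated explants.

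The somatic cells of the early gonad can become either testis or ovary. In XY cells the Y-linked factor SRY switches on Sox9, which drives the supporting lineage towards Sertoli cells, whereas in XX cells WNT4, RSPO1 and beta-catenin act on the ovarian side. Before that choice, NR5A1, WT1, GATA4, LHX9 and EMX2 maintain the bipotential gonad in both sexes.

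The libraries were checked first. Sry was listed at 0 in both control XX libraries and was present in the 3 XY libraries, and the gonadal genes Nr5a1, Wt1 and Gata4 stood above 100 TPM in all 5, so the libraries carried the sex and tissue their labels give. XY replicates 1 and 2 lay closer together than any other pair: among 2681 highly expressed genes their median absolute log2 difference was 0.0608, against 0.145 and 0.146 to XY replicate 3 and 0.107 between the XX replicates. They also shared 330 identical values, where the other pairs within the control groups shared 28 to 39. Whether they are separate cultures is not given, so counts are also given with these 2 libraries averaged into 1. Dfo XY replicates 1 and 2 had a median absolute log2 difference of 0.07 and shared 111 identical values. Wherever control XY replicates 1 and 2 were averaged, these 2 Dfo libraries were averaged as well. The short non-coding RNAs took 20.1% to 25.7% of the deposited TPM in XY and 9.78% to 10.1% in XX. The number of symbols above 0 was 16913 to 18931 in XY and 14578 to 14949 in XX. Of 1125 olfactory receptor symbols, genes of the nasal epithelium, 80, 181 and 387 were above 0 in XY replicates 1, 2 and 3, and 5 and 8 in the XX libraries. At E11.5 the same counts were 143 and 394 in XY and 7 and 11 in XX. In Dfo XY replicates 1, 2 and 3 they were 31, 35 and 280. The summed level of these receptors was 46.8, 115 and 459 TPM in control XY and 22.3 and 17.4 TPM in control XX, so by level XY replicate 1 was closer to XX than the other control XY libraries. In Dfo XY it was 18.5, 24.1 and 318 TPM. The part of this background in the low XY-high genes was not tested. TPM keeps no sequencing depth, so no counting error could be given.

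With all 5 libraries as separate samples, 1639 autosomal genes were called, that is, had an adjusted p below 0.05 (limma on log2(TPM + 1), Benjamini-Hochberg), which is 11.7% of those tested. Of these, 565 were higher in XY (4.03%) and 1074 were higher in XX (7.65%). With XY replicates 1 and 2 averaged, 288 genes were called (2.05%), 104 higher in XY and 184 higher in XX. The filter let in 779 autosomal genes through XY alone, with no XX library at 1 TPM, and 18 through XX alone, and 111 genes called higher in XY and 3 called higher in XX were of those kinds. The genes called higher in XY had a median of 16 TPM over the 5 libraries, and those called higher in XX had a median of 83.6 TPM. The XY and XX libraries did not overlap for 6572 autosomal genes, or 46.8%. A separation of the libraries is therefore common in this comparison.

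The count and the balance of directions depended on the libraries and the scaling. Leaving out 1 library at a time gave 511, 485 and 1649 calls without XY replicates 1, 2 and 3, and 264 and 664 calls without XX replicates 1 and 2. Without XX replicate 1, list counts given below fell from 11 to 2 for cholesterol synthesis, 11 to 2 for regulators of Sry, 7 to 1 for the bipotential gonad, 6 to 3 for the ovarian WNT pathway and 7 to 0 for interferon-stimulated genes. Scaling by median of ratios gave 570 genes higher in XY and 531 higher in XX, quantile normalization gave 326 and 315, and TPM as deposited gave 475 and 3575, where the median autosomal gene differed by -0.27. Under the main scaling that median was -0.05. A core of 225 genes (79 higher in XY, 146 higher in XX) was called in the same direction with all libraries separate, with XY replicates 1 and 2 averaged, under both other scalings and after a trend on transcript length was removed.

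Transcript length moved with the difference between the cultures. The 7346 autosomal genes whose mean reached 20 TPM were split into 10 groups of increasing length, and the group with the shortest transcripts (265 to 1372 bases) had a median log2 difference of 0.24 and held 139 genes called higher in XY and 8 called higher in XX. The group with the longest transcripts (7053 bases or more) had a median of -0.29, with 2 genes called higher in XY and 208 called higher in XX. At E11.5 the medians of those groups were 0.08 and 0.03. In each library, the median log2 deviation from the mean of all 12 libraries was also taken in both groups. Shortest minus longest was 0.21 to 0.25 in control XY and -0.34 and -0.30 in control XX. It was -0.21 to -0.04 in the Dfo XY cultures and 0.03 to 0.20 at E11.5. A smooth length trend removed from each library, an alternative chosen after seeing the data, left 664 calls, 395 higher in XY and 269 higher in XX, and 41 when XY replicates 1 and 2 were averaged as well.

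**Figure D1:**
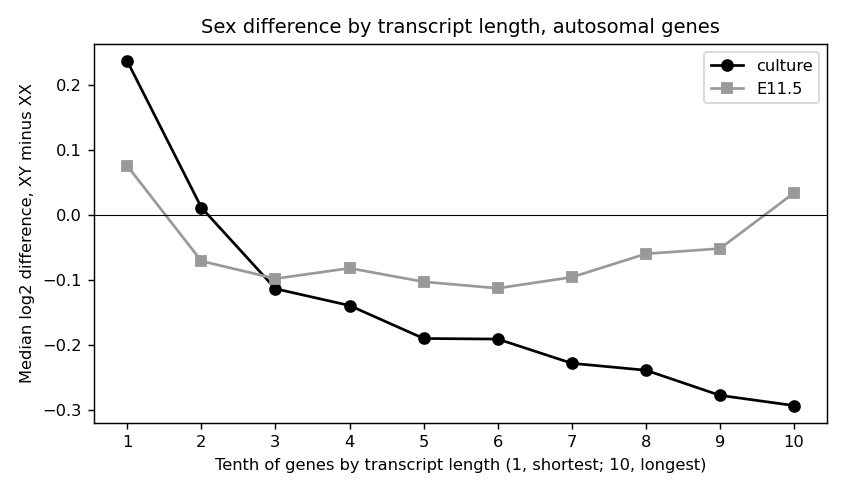
Median log2 difference (XY minus XX) of autosomal genes whose mean reached 20 TPM, in 10 groups of increasing transcript length, after culture (black circles) and at E11.5 (grey squares). In culture the median falls from 0.24 in the shortest group to -0.29 in the longest, and at E11.5 the shortest and longest groups stand at 0.08 and 0.03.

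Sox9, the transcription factor that starts Sertoli cell differentiation, was the testis gene of the autosomes that stood apart most firmly. It is located on chromosome 11 from 112782224 to 112787760 (mm10, plus strand). Sry itself read 26, 22.1 and 57.1 TPM in XY replicates 1, 2 and 3 and was listed at 0 in both XX libraries. Sox9 read 88.5, 91.6 and 58.6 TPM in XY and 28.9 and 27.5 TPM in XX. Every XY library lay above both XX libraries, and XY replicate 3, which had the most Sry, had the least Sox9 of the XY libraries. The log2 difference of Sox9 was 1.44 ± 0.18 (SE), a ratio of means of 2.82, with an adjusted p of 0.00136, and 0.0156 with XY replicates 1 and 2 averaged.

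Of 26 measured genes of the testis pathway, 4 were called higher in XY (Sry, Sox9, Sostdc1 and Sox10) and 1 was called higher in XX. Over all autosomal genes the shares were 4.03% and 7.65%. Sry is Y-linked, so its call was fixed by sex and does not bear on the autosomal share. The median over the list was 0.75, against -0.05 over all autosomal genes. Sostdc1, a secreted antagonist of BMP and WNT signalling, read 7.34, 6.65 and 16.5 TPM in XY and 0.912 and 0.920 TPM in XX (log2 difference 2.44 ± 0.41, adjusted p = 0.0056, and 0.0304 averaged). Neither XX library reached 1 TPM, so Sostdc1 passed the filter through XY alone, and its call is only a description. At E11.5 it read 13.7 and 5.88 TPM in XY and 7.77 and 5.74 TPM in XX and was not called (adjusted p = 0.69). Sox10, a SOX factor best known from neural crest and glia, read 10.1, 8.56 and 5.20 TPM in XY and 2.12 and 2.48 TPM in XX, and its call was lost on averaging (adjusted p = 0.092) and without any 1 library but XY replicate 3 (0.0553 to 0.0941). Sox10 also stands on the list of neural crest genes described below. Dmrt1, which maintains Sertoli cell identity later, went the other way with 9.29, 14.7 and 15.3 TPM in XY and 22.9 and 27.1 TPM in XX (-0.91 ± 0.25, adjusted p = 0.0359, and 0.0814 averaged, 0.0597 with median-of-ratios scaling, and 0.0708 to 0.161 without any 1 library but XY replicate 3).

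The genes that act downstream of Sox9 or beside it did not pass the test. Fgf9, the growth factor that sustains Sox9, read 2.91, 3.14 and 5.20 TPM in XY and 2.27 and 2.94 TPM in XX (log2 difference 0.37 ± 0.32). Amh, the hormone of Sertoli cells that removes the Müllerian duct, was at most 1.52 TPM in XY and was listed at 0 in both XX libraries. Sox8, a close relative of Sox9, read 6.56, 4.91 and 3.96 TPM in XY and 2.30 and 1.52 TPM in XX (adjusted p = 0.0623). Ptgds, which makes prostaglandin D2, read 35.9 and 39.0 TPM in XY replicates 1 and 2 but 8.26 TPM in XY replicate 3, beside 3.87 and 5.36 TPM in XX (adjusted p = 0.132). For Sox8 and Ptgds the groups did not overlap, as for 46.8% of autosomal genes.

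Wnt4, the WNT ligand needed for ovarian differentiation, was the ovarian gene that stood apart most firmly. It lies on chromosome 4 from 137277489 to 137299726 (mm10, plus strand). It read 114, 113 and 116 TPM in XY and 245 and 237 TPM in XX, so that the XX mean was 2.11 times the XY mean. The replicates of each group lay close together and the groups far apart. The log2 difference was -1.07 ± 0.12, with an adjusted p of 0.001, and 0.0124 with XY replicates 1 and 2 averaged.

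Of 24 measured genes of the ovarian WNT pathway, 6 were called higher in XX (Wnt4, Lef1, Runx1, Msx1, Axin2 and Bmp2) and 1, Rnf43, was called higher in XY. Averaging XY replicates 1 and 2 left 3 of these called higher in XX. Over all autosomal genes 7.65% were called higher in XX and 4.03% higher in XY. The list median was -0.23. Lef1, a transcription factor through which beta-catenin acts, read 66.7, 65.0 and 69.9 TPM in XY and 115 and 101 TPM in XX (-0.68 ± 0.09, adjusted p = 0.00249, and 0.0294 averaged). Runx1, a factor of the ovarian supporting lineage, read 19.1, 17.6 and 18.2 TPM in XY and 30.9 and 40.0 TPM in XX (-0.91 ± 0.16, adjusted p = 0.00697, and 0.0495 averaged). Axin2, a common readout of beta-catenin activity, read 41.5, 46.1 and 49.2 TPM in XY and 63.6 and 66.1 TPM in XX, with an adjusted p of 0.0217 that was lost on averaging (0.106). The calls of Msx1 and Axin2 were lost without any 1 library but XY replicate 3 (adjusted p = 0.0548 to 0.118 and 0.0681 to 0.1), that of Bmp2 without any 1 of the 5 (0.0796 to 0.15), and that of Runx1 without XX replicate 2 (0.0561).

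Other genes of the ovarian side were not separated in culture. Rspo1, which strengthens WNT signalling, read 81.8, 72.2 and 82.3 TPM in XY and 93.0 and 78.9 TPM in XX, and the groups overlapped. Its small difference of -0.12 ± 0.12 turned to 0.06 under quantile normalization. Foxl2, a later factor of granulosa cells, was between 2.37 and 3.8 TPM in all 5 libraries. Fst, the activin-binding protein follistatin, read 22.2, 25.9 and 32.1 TPM in XY and 43.8 and 44.8 TPM in XX and just missed the threshold (-0.72 ± 0.22, adjusted p = 0.0536).

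Of 20 measured regulators of the bipotential gonad, 7 were called higher in XX (Wt1, Nr5a1, Gata6, Lhx9, Zfpm2, Emx2 and Gata4) and none higher in XY, against 7.65% and 4.03% of all autosomal genes, and the other 13 were not called. With XY replicates 1 and 2 averaged 3 were called, and after removal of the length trend 4 were called higher in XX and 1 higher in XY. Nr5a1, the nuclear receptor by which the cells were selected (chromosome 2, 38692656 to 38714542, minus strand), read 130, 141 and 159 TPM in XY and 266 and 235 TPM in XX (-0.80 ± 0.13, adjusted p = 0.00545, and 0.0425 averaged). Wt1, a zinc-finger factor of the gonad and kidney, read 254, 258 and 236 TPM in XY and 385 and 346 TPM in XX (-0.55 ± 0.08, adjusted p = 0.00404, and 0.0297 averaged). In both genes the lowest XX library stood above the highest XY library. Gata4, a zinc-finger factor needed for Sry expression, read 192, 201 and 194 TPM in XY and 322 and 326 TPM in XX (-0.73 ± 0.18, adjusted p = 0.024, and 0.0819 averaged). Lhx9 and Emx2, homeobox factors of the gonadal ridge, differed by -0.75 ± 0.15 and -0.68 ± 0.15 (adjusted p = 0.0117 and 0.0159, and 0.0537 and 0.0845 averaged). After removal of the length trend Nr5a1 and Wt1 kept their calls (adjusted p = 0.0137 and 0.0273) and Lhx9 did not (0.0562). Without XX replicate 1 the adjusted p of Nr5a1 was 0.0595 and that of Lhx9 0.0873, and Gata4 and Emx2 lost their calls without any 1 library but XY replicate 3 (0.0663 to 0.114 and 0.0633 to 0.102).

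The list of genes that regulate Sry shares Wt1, Nr5a1, Gata4 and Zfpm2 with that of the bipotential gonad. Of its 21 measured genes, 11 were called higher in XX and none higher in XY, against 7.65% and 4.03% of all autosomal genes. The list median was -0.40. Averaging left 3 called, and after removal of the length trend 3 were called higher in XX and 1 higher in XY. Map3k1, a kinase gene, read 81.4, 78.6 and 83.9 TPM in XY and 124 and 119 TPM in XX (-0.58 ± 0.11, adjusted p = 0.00785, and 0.0495 averaged, but 0.0678 without XX replicate 1). Kdm3a, the histone H3K9 demethylase that opens the Sry locus, read 124, 118 and 130 TPM in XY and 156 and 195 TPM in XX (-0.49 ± 0.10, adjusted p = 0.0119, and 0.0724 averaged, 0.0519 without XY replicate 2 and 0.0904 without XX replicate 2). After removal of the length trend neither Map3k1 nor Kdm3a was called (adjusted p = 0.0934 and 0.0964).

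Podxl, the sialomucin podocalyxin of coelomic epithelium and podocytes, was among the clearest XX-high genes (chromosome 6, 31519488 to 31563981, minus strand). It read 241, 240 and 308 TPM in XY and 550 and 523 TPM in XX (-1.04 ± 0.12, adjusted p = 0.001, and 0.014 averaged). Of 12 measured genes of coelomic epithelium, Podxl and Upk3b were called higher in XX and none higher in XY. Over all autosomal genes the shares were 7.65% and 4.03%. Podxl alone was called with XY replicates 1 and 2 averaged.

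Because the gonadal genes moved together, differences were also taken relative to the mean log2 level of Nr5a1, Wt1, Gata4, Lhx9 and Emx2 in each library, a reference chosen after seeing the data. On that scale the median autosomal gene stood 0.65 higher in XY, so any gene that was less XX-high than these 5 turned to the XY side. Sox9 then differed by 2.14 (adjusted p = 8.52e-05), and Wnt4 and Podxl kept the XX side with -0.37 and -0.33 (adjusted p = 0.0337 and 0.028). Lef1 and Axin2 stood at 0.02 and 0.20 and did not pass the test (adjusted p = 0.871 and 0.249). In bulk RNA, fewer cells of a type and less RNA per cell cannot be told apart, here or in any group of genes below.

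**Figure D2:**
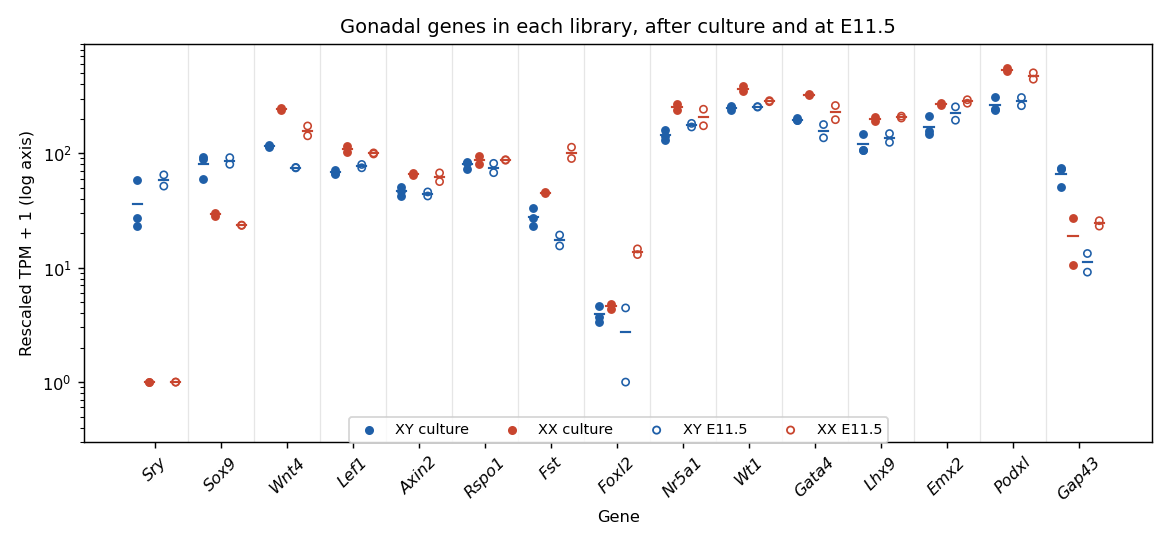
Rescaled TPM + 1 (log axis) of gonadal genes in each library, with XY in blue, XX in red, filled points after culture, open points at E11.5 and short lines at the group means. The filled points show Sox9 higher in XY, Wnt4, Nr5a1, Wt1, Gata4 and Podxl higher in XX, and Rspo1 and Foxl2 overlapping or close together.

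The largest XX-high difference belonged to Pard3b, a homologue of the cell polarity protein PAR3, whose gene covers chromosome 1 from 61638824 to 62642284 (plus strand). Pard3b read 6.90, 6.79 and 7.02 TPM in the XY libraries and 36.8 and 51.3 TPM in the XX libraries. The XX mean was 6.38 times the XY mean. The log2 difference was -2.49 ± 0.22 (adjusted p = 0.000222, and 0.0044 averaged), and the call held without each library in turn. At E11.5 Pard3b read 9.11 and 9.40 TPM in XY and 8.36 and 9.22 TPM in XX, so the XX cultures alone stood high.

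Lzts1, a gene for a leucine-zipper protein, read 47.0, 49.8 and 57.4 TPM in XY and 145 and 150 TPM in XX (-1.51 ± 0.14, adjusted p = 0.000263, and 0.0044 averaged). Aldh1a7, an aldehyde dehydrogenase gene, read 20.1, 21 and 22 TPM in XY and 57.6 and 59.0 TPM in XX (-1.43 ± 0.22, adjusted p = 0.00403). Prss35, a secreted serine-protease-like protein known from the ovary, read 14.8, 11.3 and 15 TPM in XY and 39.4 and 35.2 TPM in XX (-1.39 ± 0.18, adjusted p = 0.00191). These 3 genes and Pard3b kept their call when each library was left out in turn and when XY replicates 1 and 2 were averaged. Pcdh20, a protocadherin gene, and Thbs2, which encodes the matrix protein thrombospondin 2, differed by -1.36 ± 0.23 and -1.34 ± 0.25, and both lost their call without XX replicate 1 (adjusted p = 0.0601 and 0.0613). The remaining 6 of the 12 largest XX-high genes, Ibsp, Lars2, Smim24, Capn11, Gbp2b and Tmem174, differed by -1.97 to -1.43, and none of the 6 kept its call with XY replicates 1 and 2 averaged (adjusted p = 0.0651 to 0.155).

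The 12 largest XY-high genes were low or listed at 0 in XX, apart from Hba-a1 (24.0 and 21.5 TPM) and Hbb-bh1 (12.5 and 7.38 TPM). The filter let in far more genes through XY alone than through XX alone. Hba-a1, Hbb-bh1, Hbb-bt, Hbb-b2, Vaultrc5 and Mt2 did not enter that way, since each reached 1 TPM in an XX library. Ifi27l2a, an interferon-inducible gene, read 8.37, 16.9 and 15.5 TPM in XY and was listed at 0 in both XX libraries (adjusted p = 0.000789, and 0.0029 averaged). Zfp91Cntf, a read-through symbol that overlaps Zfp91 and Cntf, read 11.2, 9.73 and 6.79 TPM in XY and was listed at 0 in XX (adjusted p = 0.00106, and 0.0156 averaged). Etaa1os and Hotairm1, which lie antisense to Etaa1 and to HOXA genes, were also listed at 0 in both XX libraries and read 5.76 to 14 TPM and 10.4 to 14.3 TPM in XY. Etaa1os lost its call without XY replicate 2, XX replicate 1 or XX replicate 2 (adjusted p = 0.066, 0.093 and 0.0719), and Hotairm1 lost it without any 1 of the 5 libraries (0.0506 to 0.141). Hotairm1 read 17.0 and 90.6 TPM in XY and 41.2 and 23.2 TPM in XX at E11.5. The authors' counting of strand is not given, so reads of antisense and read-through genes cannot be told apart from those of their partners. Of the genes called higher in XY, 52 were listed at 0 in both XX libraries. The other members of the 12 largest are markers of blood, macrophages, metal response and neurons: Hba-a1, Hbb-bt, Hbb-b2, Hbb-bh1, Tyrobp, Mt2 and Snap25, together with Vaultrc5. With XY replicates 1 and 2 averaged, Hba-a1, Hbb-bh1 and Vaultrc5 kept their call (adjusted p = 0.0358, 0.0443 and 0.0489). Snap25, Mt2 and Tyrobp lost it (0.0509, 0.0669 and 0.0738), as did Hbb-bt and Hbb-b2 (0.124). Hbb-bh1 lost its call without XX replicate 2 (0.0509), and Vaultrc5 without XX replicate 1 (0.0889). Hbb-bt and Hbb-b2 hold the same value in every library and cannot be counted as 2 observations.

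A group of cholesterol synthesis genes was called higher in XX. The pathway builds cholesterol, the precursor of steroid hormones, from acetyl-CoA, and its genes share control by sterol-sensing SREBP factors that act with the CCAAT-binding factor NF-Y. Of 24 measured genes, 11 were called higher in XX and none higher in XY, against 7.65% and 4.03% of autosomal genes, and the list median was -0.44. With XY replicates 1 and 2 averaged 4 were called, among them Cyp51, Sqle and Insig1, and after removal of the length trend 7. Cyp51, the lanosterol demethylase, read 149, 149 and 157 TPM in XY and 241 and 243 TPM in XX (-0.67 ± 0.08, adjusted p = 0.001, and 0.0156 averaged). Sqle, which makes the first oxygenated sterol precursor, read 171, 169 and 169 TPM in XY and 264 and 256 TPM in XX (-0.62 ± 0.10, adjusted p = 0.00584, and 0.0403 averaged). For these genes each group was tight and the groups were well apart. Without XX replicate 1, Cyp51 kept its call (adjusted p = 0.0174) and Sqle did not (0.0544).

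Summed over the list, cholesterol genes stood at 3600, 3680 and 3618 TPM in XY and 5235 and 5046 TPM in XX. The same sum was 1193 and 1124 TPM in XY and 1115 and 963 TPM in XX at E11.5. The level was thus higher in all cultures than at E11.5, and the sexes parted in culture. Cyp51 passed the test of the sex difference in culture against that at E11.5 (adjusted p = 0.0165), but not with XY replicates 1 and 2 averaged (0.111). Relative to the 5 gonadal genes, Cyp51 and Sqle stood at 0.03 and 0.09, so their difference was about as large as that of the gonadal genes themselves.

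The letters CCAAT, on either strand, occurred in the 250 bases before the start of 16 of the 17 cholesterol genes found in the RefSeq promoter table (GRCm38.p6), and more than once in 9 of them. Over all 27025 genes of that table, 37.5% held it. The sterol-response letters CACCCCAC occurred in 2 of the 17, Hmgcs1 and Acat2, against 2.98% of all genes. Such a match is a description of the letters and no evidence of binding. Hmgcs1 (435, 434 and 506 TPM in XY, 708 and 678 TPM in XX), Mvk, Mvd and Insig1, chosen after their values were seen, were all called higher in XX, and they are printed to show where the letters stand, from 1 match in Insig1 to 5 in Mvk. CCAAT or its reverse complement ATTGG and CACCCCAC are in capitals. The stretches hold no annotated exon, 5′ to 3′ on the gene's strand, at chr13:119690101-119690350 (plus) for Hmgcs1, chr5:114444061-114444268 (plus) for Mvk, chr8:122443423-122443672 (minus) for Mvd and chr5:28071162-28071362 (plus) for Insig1.
Hmgcs1: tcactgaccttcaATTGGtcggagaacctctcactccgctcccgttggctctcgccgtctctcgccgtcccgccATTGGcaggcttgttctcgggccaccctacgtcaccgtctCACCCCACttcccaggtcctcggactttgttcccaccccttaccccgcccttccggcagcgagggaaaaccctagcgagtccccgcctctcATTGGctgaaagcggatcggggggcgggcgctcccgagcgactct
Mvk: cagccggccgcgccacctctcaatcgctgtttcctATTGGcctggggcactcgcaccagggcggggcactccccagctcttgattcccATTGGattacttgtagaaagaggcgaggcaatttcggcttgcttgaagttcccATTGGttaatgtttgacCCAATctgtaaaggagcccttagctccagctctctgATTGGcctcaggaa
Mvd: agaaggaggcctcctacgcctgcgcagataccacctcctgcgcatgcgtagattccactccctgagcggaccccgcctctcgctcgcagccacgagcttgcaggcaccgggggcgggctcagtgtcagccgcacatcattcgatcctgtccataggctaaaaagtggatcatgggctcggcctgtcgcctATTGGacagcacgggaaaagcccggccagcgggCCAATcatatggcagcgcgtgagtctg
Insig1: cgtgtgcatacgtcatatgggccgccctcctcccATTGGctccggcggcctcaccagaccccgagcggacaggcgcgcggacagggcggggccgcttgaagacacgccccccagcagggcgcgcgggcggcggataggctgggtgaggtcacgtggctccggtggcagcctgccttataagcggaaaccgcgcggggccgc

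Histone genes of the Hist clusters formed the largest group of XY-high genes with substantial levels. This family was picked after its values were seen, so its counts are a description. Replication-dependent histone genes are short, lie in clusters, and mostly end their mRNA without a poly(A) tail during S phase. Of 64 measured, 49 were called higher in XY and none higher in XX, against 4.03% and 7.65% of all autosomal genes. Their median log2 difference was 0.89. Their summed level was 79560, 76660 and 66197 TPM in XY and 42536 and 40565 TPM in XX. At E11.5 the sum was 76063 and 76117 TPM in XY and 73270 and 78830 TPM in XX, with a median difference of -0.02 and no call in either direction. The XX cultures were therefore the libraries that stood low. Hist1h4j read 432, 351 and 370 TPM in XY and 131 and 145 TPM in XX (1.47 ± 0.17, averaged adjusted p = 0.0077). On averaging XY replicates 1 and 2, 14 of the 64 were called, and without XX replicates 1 and 2 the counts were 14 and 17. After removal of the length trend 15 were called, with a median of 0.46. Near-identical copies share reads, so single histone genes are uncertain, and their counts are not independent.

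Other short housekeeping genes and the S-phase list can be set beside the histones. Of 79 ribosomal protein genes, also picked after the values were seen, 34 were called higher in XY and none higher in XX. Of all autosomal genes 4.03% were called higher in XY. The ribosomal sums were 144337 to 146767 TPM in XY and 112274 and 113804 TPM in XX. After removal of the length trend 11 were called. TPM as deposited gave 14 higher in XY and 1 higher in XX. Of 40 S-phase genes such as the replication helicase subunits Mcm2, Mcm4 and Mcm6, 4 were called higher in XX, near the 7.65% of all autosomal genes, and none higher in XY (median -0.26), and none was called with XY replicates 1 and 2 averaged or after removal of the length trend. Of 36 mitosis genes, 1 was called higher in XY and 2 higher in XX.

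**Figure D3:**
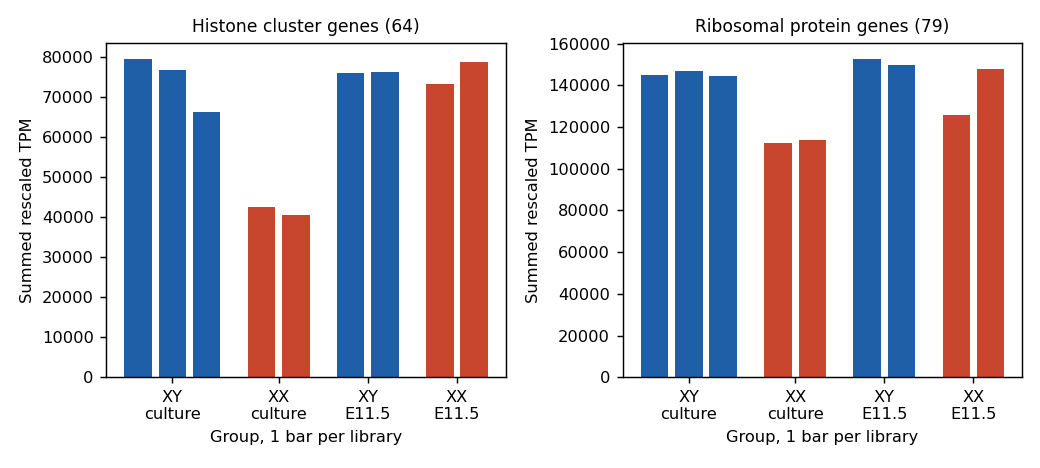
Summed rescaled TPM of 64 histone cluster genes (left) and 79 ribosomal protein genes (right), with 1 bar per library, XY in blue and XX in red. The 2 XX culture bars stand at 42536 and 40565 for histones, below the other 7 libraries, which lie between 66197 and 79560.

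The histone clusters also set the autosome that departed most. Calls covered 9.96% to 16.9% of the genes of each autosome, with chromosome 13 highest (66 higher in XY, 30 higher in XX). It holds 52 of the 64 histone genes. Without them 25 genes were called higher in XY and 30 higher in XX on chromosome 13, or 10.7% of 515.

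Markers of some other cell types were called higher in the XY cultures, more often than the 4.03% of all autosomal genes. Of neural crest and neuronal genes, 13 of 19 were called higher in XY, none higher in XX and a median of 1.48. With XY replicates 1 and 2 averaged 4 were called (Stmn2, Nefl, Gap43 and Dbh), and after removal of the length trend 8. Without XX replicate 1 the count was 2. Their summed level was 847, 698 and 459 TPM in XY and 233 and 284 TPM in XX. Gap43, a growth-cone protein (chromosome 16, 42248442 to 42340651, minus strand), read 71.6, 73.0 and 49.2 TPM in XY and 9.58 and 25.9 TPM in XX (1.94 ± 0.32, adjusted p = 0.0054, and 0.0439 averaged). Stmn2, a tubulin-binding protein of neurons, read 46.3, 36.1 and 15.7 TPM in XY and 2.32 and 5.86 TPM in XX (2.69 ± 0.43, adjusted p = 0.00485, and 0.0358 averaged). Dbh, which makes noradrenaline, read 37.5, 31.9 and 30.3 TPM in XY and 7.43 and 16.7 TPM in XX (1.48 ± 0.26, adjusted p = 0.00683, and 0.0441 averaged). Stmn2 and Dbh lost their call without XX replicate 1 (adjusted p = 0.0544 for both).

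Genes of mesonephric epithelium came next, with 9 of 15 called higher in XY, none higher in XX and a median of 1.24. With XY replicates 1 and 2 averaged 4 were called, after removal of the length trend 7, and without XX replicate 1, 2. The sums were 290, 294 and 309 TPM in XY and 137 and 163 TPM in XX. Epcam, an adhesion molecule of epithelia, read 37.7, 43.5 and 56.4 TPM in XY and 12.6 and 10.3 TPM in XX (1.90 ± 0.22, adjusted p = 0.001, and 0.0077 averaged). Wfdc2, a secreted epithelial protein, read 16.8, 22.1 and 20.8 TPM in XY and 6.4 and 2.35 TPM in XX (2.06 ± 0.32, adjusted p = 0.00447, and 0.0287 averaged). Pax2 and Pax8, which define the mesonephric duct and tubules, were present in all 5 libraries at 11 to 18.2 TPM and 17.8 to 41.2 TPM, and neither was called.

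Blood cell markers differed among the XY libraries. Of 11 measured erythroid genes, 4 were called higher in XY, against 4.03% of all autosomal genes, and 2 with XY replicates 1 and 2 averaged. Hba-a1, an alpha-globin gene, read 1253 and 1421 TPM in XY replicates 1 and 2 and 157 TPM in XY replicate 3, beside 24.0 and 21.5 TPM in XX. The summed erythroid level was 2962 and 3438 TPM in XY replicates 1 and 2 but 416 TPM in XY replicate 3, near the 304 and 271 TPM of the XX libraries. Hba-a2, another alpha-globin symbol, went against this with 62.3, 118 and 0 TPM in XY and 53.3 and 73.9 TPM in XX, and reads of near-identical globin copies cannot be assigned with certainty. Of 16 macrophage genes, 5 were called higher in XY (Tyrobp, Lyz2, C1qa, C1qb and C1qc) and none with XY replicates 1 and 2 averaged. Their sum was 284, 240 and 150 TPM in XY and 79.3 and 113 TPM in XX. Of 19 endothelial genes 2 were called higher in XY and none on averaging, and of 12 measured germ cell genes none was called. How far these cell types entered the differences of other genes was not tested.

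Some interferon-stimulated genes were called higher in XY, at low levels. Of 23 measured, 7 were called higher in XY and none higher in XX, against 4.03% and 7.65% of all autosomal genes. Of them 1, Ifit3, was also called with XY replicates 1 and 2 averaged. Ifit3, an antiviral effector, read 4.28, 4.21 and 5.13 TPM in XY and was listed at 0 in both XX libraries (adjusted p = 0.00878, and 0.0425 averaged, 0.0619 without XX replicate 1). It therefore passed the filter through XY alone, and its call is only a description. The part of the higher background of silent genes in XY in such low values was not tested. Isg15, a ubiquitin-like modifier, read 15.7, 8.97 and 14.3 TPM in XY and 1.59 and 1.60 TPM in XX (adjusted p = 0.0244, and 0.0849 averaged, 0.0525 to 0.116 without any 1 library but XY replicate 3). Stat2 and Irf9, which carry the interferon signal, were at 16.8 to 20.1 TPM and 32.5 to 42.3 TPM, overlapped between the sexes, and were not called.

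**Figure D4:**
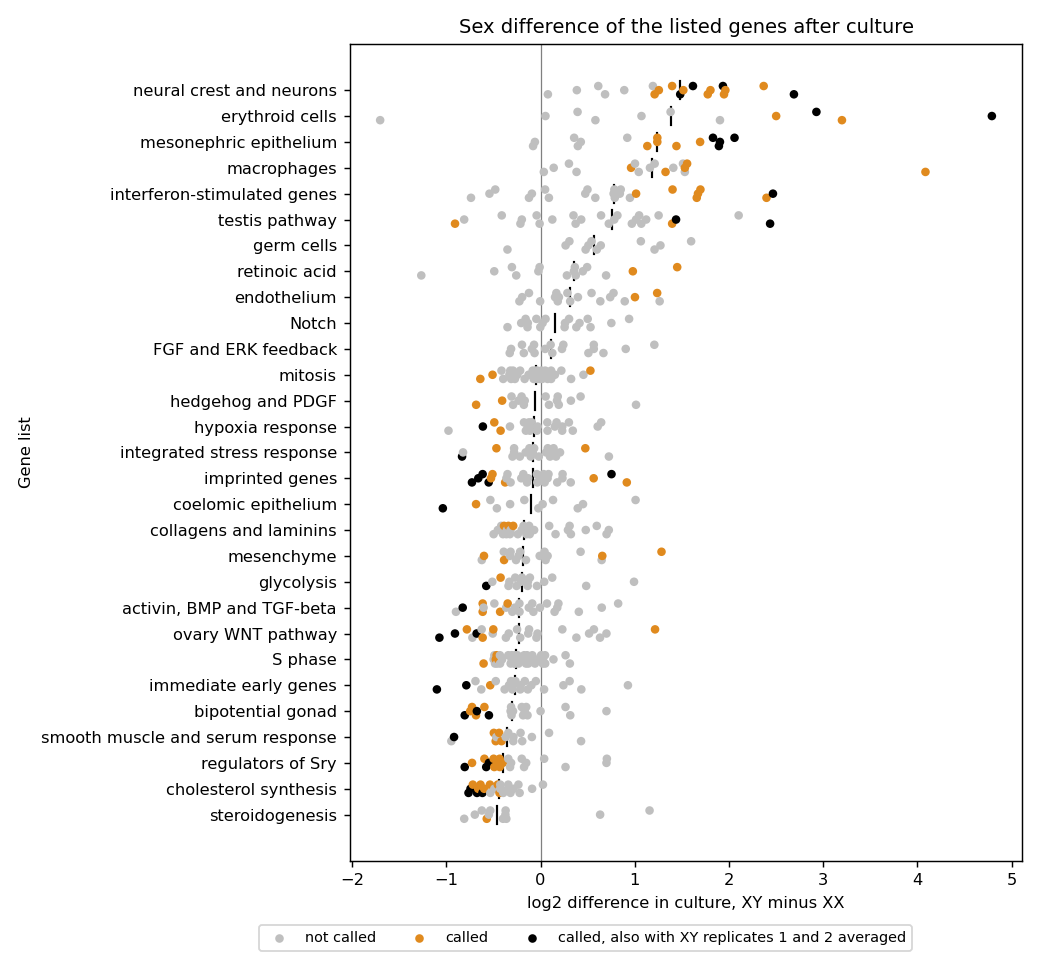
Log2 difference after culture (XY minus XX) of each measured gene in the lists, ordered by list median (short lines), without the X-linked and Y-linked lists and without Sry. Grey points were not called, orange points were called, and black points were also called with XY replicates 1 and 2 averaged. Neural, erythroid and mesonephric lists lie furthest to the right, and steroidogenesis and cholesterol synthesis furthest to the left.

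Imprinted genes went both ways. Of 28 measured, 7 were called higher in XX and 3 higher in XY, against 7.65% and 4.03% of all autosomal genes. With XY replicates 1 and 2 averaged the counts were 4 and 1. Peg3, a zinc-finger gene expressed from the paternal allele, read 1636, 1569 and 1508 TPM in XY and 2662 and 2540 TPM in XX (-0.73 ± 0.09, adjusted p = 0.00116, and 0.0156 averaged). Peg10, a retrotransposon-derived gene, read 453, 430 and 448 TPM in XY and 699 and 703 TPM in XX (-0.66 ± 0.10, adjusted p = 0.00309, and 0.0287 averaged). Nnat, a small membrane protein gene, went the other way with 453, 439 and 324 TPM in XY and 230 and 245 TPM in XX (0.75 ± 0.14, adjusted p = 0.00726, and 0.0487 averaged). Igf2, the growth factor, read 1169, 1171 and 886 TPM in XY and 1361 and 1382 TPM in XX and was not called (adjusted p = 0.149).

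The serum-response and immediate early lists held a few XX-high genes. Cyr61, a matrix-bound target of YAP and serum-response factor, read 164, 166 and 127 TPM in XY and 284 and 288 TPM in XX (-0.92 ± 0.12, adjusted p = 0.00198, and 0.0143 averaged). In its list of 16 genes, 5 were called higher in XX and none higher in XY, against 7.65% of all autosomal genes called higher in XX, and 1 on averaging. Fos, an AP-1 subunit induced within minutes of a stimulus, read 139, 170 and 154 TPM in XY and 313 and 350 TPM in XX (-1.10 ± 0.17, adjusted p = 0.00468, and 0.0323 averaged). Fos, Fosb and Fosl2 were the 3 called genes among 23 immediate early genes, all higher in XX and again set against 7.65%, and Fosl2 lost its call without any 1 of the 5 libraries, whereas Egr1, Jun and Dusp1 were not called.

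Signalling and stress lists gave few calls, and their shares can be set against the 7.65% of all autosomal genes called higher in XX and the 4.03% called higher in XY. Of 24 activin, BMP and TGF-beta genes 5 were called higher in XX, led by Inhbb, an activin and inhibin subunit, with 40.3, 44.6 and 41.8 TPM in XY and 72.8 and 78.4 TPM in XX (-0.83 ± 0.15, adjusted p = 0.00731, and 0.0457 averaged). Hypoxia genes gave 3 of 24 and glycolysis genes 2 of 17, all higher in XX, with Hif1a at 200, 208 and 195 TPM in XY and 285 and 332 TPM in XX (-0.61 ± 0.11, adjusted p = 0.00669, and 0.0553 without XX replicate 2). Collagens and laminins gave 3 of 29 higher in XX, hedgehog and PDGF genes 2 of 16 higher in XX and steroidogenesis 1 of 12 higher in XX. Retinoic acid genes gave 2 of 15 higher in XY and mesenchyme 2 of 18 in each direction, which in XY is above 4.03% but rests on 2 genes each. With XY replicates 1 and 2 averaged, none of the genes on these lists was called. The integrated stress response gave 1 of 22 higher in XY and 2 higher in XX, among them Asns, asparagine synthetase (162, 145 and 145 TPM in XY, 253 and 285 TPM in XX, adjusted p = 0.00398). Among 18 FGF and 18 Notch genes none was called.

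The same contrast at E11.5 shares no library with that of the cultures. It gave 242 called autosomal genes (1.72%), 77 higher in XY and 165 higher in XX, and 59 with XY culture replicates 1 and 2 averaged in the shared model. Both contrasts called 81 genes, which is 33.5% of the E11.5 calls and 4.94% of the culture calls. Of these 81, 77 had the same direction, 12 higher in XY and 65 higher in XX. The fit shares 1 estimate of spread between them, and fitted on the 4 E11.5 libraries alone no gene was called at E11.5.

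Sox9 and Wnt4 were called in both settings. At E11.5 Sox9 read 79.0 and 90.4 TPM in XY and 22.5 and 22.4 TPM in XX (1.87 ± 0.20, adjusted p = 0.000538). Wnt4 read 74.1 and 73.4 TPM in XY and 172 and 141 TPM in XX (-1.07 ± 0.14, adjusted p = 0.00277), the same log2 difference as in culture. Podxl, Cyr61, Asns and Lzts1 were also called higher in XX in both. Pitx1, a homeobox gene best known from the hindlimb, was called higher in XY in both, with 13.4, 9.34 and 9.16 TPM in XY and 1.88 and 3.04 TPM in XX after culture, and 5.64 and 4.75 TPM in XY and 0.342 and 0.107 TPM in XX at E11.5. Kitl, the ligand of the germ cell receptor KIT, and Ereg, an EGF-family ligand, chosen after their values were seen, were called higher in XX in both, Kitl with -0.67 ± 0.10 and -0.68 ± 0.11 and Ereg with -0.90 ± 0.13 and -0.92 ± 0.14.

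The sex difference in culture was then tested against that at E11.5, and 46 autosomal genes passed (0.328%), 23 in each direction, but 4 with XY replicates 1 and 2 averaged. Fos read 50.2 and 45.7 TPM in XY and 383 and 656 TPM in XX at E11.5, a difference of -3.36 ± 0.19 against -1.10 ± 0.17 in culture (adjusted p of the interaction 0.00544, and 0.0332 averaged). Dusp5, a phosphatase that limits ERK signalling, read 9.42 and 12.5 TPM in XY and 48.6 and 52.4 TPM in XX at E11.5, but 43.2, 37.1 and 45.1 TPM in XY and 39.3 and 37.9 TPM in XX after culture (interaction adjusted p = 0.000644, and 0.00866 averaged). Of 23 immediate early genes, 15 were called higher in XX at E11.5 and 3 in culture. How the 2 sexes were handled before RNA was taken is not given.

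Fst and Foxl2 were XX-high at E11.5 and less so or not in culture. Fst read 14.5 and 18.3 TPM in XY and 112 and 88.9 TPM in XX at E11.5 (-2.54 ± 0.24, adjusted p = 0.000288), and its interaction had an adjusted p of 0.0434, and 0.111 averaged. Foxl2 read 0 and 3.45 TPM in XY and 13.6 and 12 TPM in XX at E11.5 (adjusted p = 0.0458), and the difference between the settings did not pass the test (adjusted p = 0.185). Gap43 was on the XX side at E11.5, with 8.14 and 12.3 TPM in XY and 22.1 and 24.7 TPM in XX, and on the XY side in culture (interaction adjusted p = 0.028, and 0.111 averaged). Pard3b and Peg3 were called in culture but not at E11.5, where Peg3 differed by 0.12 (interaction adjusted p = 0.0112 and 0.028, and 0.0774 and 0.111 averaged). Ifi27l2a was called in opposite directions, listed at 0 in XY and at 10.84 and 5.29 TPM in XX at E11.5.

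**Figure D5:**
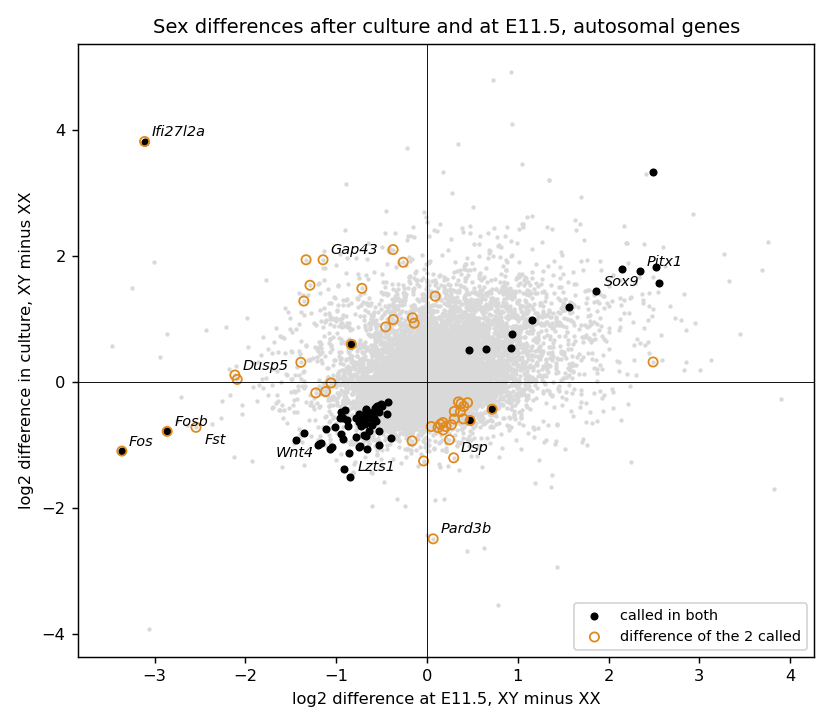
Log2 difference (XY minus XX) of 14033 autosomal genes after culture (vertical axis) against that at E11.5 (horizontal axis). Black points mark the 81 genes called in both, and orange circles mark the 46 genes for which the difference between the 2 passed the test. Sox9 and Wnt4 lie near the diagonal, Fos, Fosb and Dusp5 far to the left, and Pard3b low on the centre line.

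The sex chromosomes gave the scale for a known difference. All 5 measured Y-linked genes of the list, among them Sry, Ddx3y and Uty, were called higher in XY. Of 12 measured X-linked genes known to escape inactivation, 8 were called higher in XX and 5 with XY replicates 1 and 2 averaged. Eif2s3x, a translation initiation factor gene, read 116, 115 and 128 TPM in XY and 213 and 230 TPM in XX (-0.88 ± 0.10, adjusted p = 0.000929), and Xist, which silences the second X, read at most 0.225 TPM in XY and 184 and 194 TPM in XX. Over all 522 X-linked genes the median difference was -0.08, and 10 were called higher in XY and 48 higher in XX.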

How the data were processed

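The authors' deposited values were TPM, 1 file per library. The submitters' processing notes name mm10, R 4.1.2, RSEM and STAR 2.7.10b, whereas annotation and strand setting were not given in the sources used here. Per the labels' protocols, total RNA went into SMART-Seq Stranded libraries. TPM was rescaled to 1000000 without the short non-coding RNAs, because these took different shares of the libraries. Positions and the longest transcript of each gene came from GENCODE M21 and, for 520 kept symbols, from RefSeq.

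Differences were fitted on log2(TPM + 1) with limma 3.58.1 in R 4.3.3, over all 12 libraries, with a coefficient for each group, a mean-variance trend and Benjamini-Hochberg adjustment over 14596 genes. The log2 scale understates differences of low genes. The method was tested on simulated data with independent noise in every library. The simulation held no near-identical replicates, length trend or background of silent genes, so it cannot show how reliable the calls are here. Tables and figures used Python 3.11.15, pandas 2.3.3, numpy 2.4.6 and matplotlib 3.10.9.

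The 31 gene lists came from textbook knowledge. The comparison, its members and the lists were chosen with earlier results of these data known. Genes named were the 12 largest called differences in each direction (group mean of at least 5 TPM, no overlap, no predicted symbol), up to 4 called members of each list, 20 gonadal genes, the 10 leading genes called alike at E11.5, and 6 with a called interaction, except where stated. The alternatives changed the pseudocount, filter, scaling, variance trend, libraries, averaging and replicate block. Those on transcript length, on the gonadal reference and on genes at 1 TPM in all 5 libraries were added after seeing the data. Some genes that the rule names are not reported here.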

Additional observations from a re-analysis of the deposited data

Results flagged for a closer look

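The sex differences of 15 named autosomal genes in culture and at E11.5 differed by the test of that difference (limma, Benjamini-Hochberg adjusted p below 0.05), each given on the log2 scale as culture minus E11.5. The difference between settings was above 0 for Ifi27l2a (6.92), Gap43 (3.08), Lyz2 (2.82), Fos (2.26), Dusp5 (2.22), Dbh (2.20), Fosb (2.07) and Fst (1.82). It was below 0 for Pard3b (-2.56), Dsp (-1.50), Lss (-1.15), Zim1 (-1.09), Polr2a (-0.95), Peg3 (-0.85) and Cyp51 (-0.82). Dsp, a desmosome gene, and Lss were chosen after their values were seen. With XY replicates 1 and 2 averaged the test was passed by Ifi27l2a, Dusp5, Fosb and Fos (adjusted p = 0.00174, 0.00866, 0.0222 and 0.0332). No group held the 4 libraries needed for a test of single libraries that stand apart.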

How the results depend on the processing

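The count of 1639 autosomal genes called in culture moved to 4050 with TPM as deposited, 641 with quantile normalization, 975 without a variance trend, 288 with XY replicates 1 and 2 averaged, 664 with the length trend removed, 41 with both, and 7881 relative to the 5 gonadal genes. The 242 calls at E11.5 moved to 444 without a filter, 59 with that averaging, 99 without a variance trend and 0 on the 4 libraries alone. The 46 calls of the difference between settings moved to 28 without a filter, 260 with TPM as deposited, and 4 with averaging or without a variance trend. Leaving out 1 library gave 264 to 1649 calls in culture, 47 to 153 at E11.5 and 4 to 95 between settings. With a replicate block the counts were 2306, 429 and 338, and 1253 in culture with the length trend removed too. By the check of pairing, the deviations of replicate numbers 1 and 2 in XY and XX correlated across 14596 genes with r = -0.01 in culture and 0.0069 at E11.5. Those of control and Dfo XY cultures correlated with 0.16, 0.09 and 0.29 for numbers 1, 2 and 3. Control XY replicate 2 correlated best with Dfo replicate 1, so the numbers were not taken as pairs in the main fit. Control XY replicate 3 correlated with Dfo replicates 1 and 2 at -0.23 and -0.15. Dfo replicate 3 correlated with control XY replicates 1 and 2 at -0.21 and -0.17. Replicate 3 thus stood apart in a similar way in both XY groups, which the main fit does not model and the replicate block does. Why it did so was not tested. Relative to the 5 gonadal genes the direction reversed for Lef1 (0.0241), Cyp51 (0.0275), Sqle (0.0856), Rspo1 (0.58), Foxl2 (0.45), Axin2 (0.20), Hmgcs1 (0.10) and Lss (0.27). Wt1 (0.15) and Emx2 (0.0171) also changed sign. They belong to those 5 genes, whose differences on that scale must cancel, so their change of sign is no result. The direction also reversed for Rspo1 under quantile normalization (0.0573) and for Dusp5 with TPM as deposited (-0.13). Beyond what the settings themselves change, the cause was not tested. TPM keeps no depth, 2 XX libraries carry each comparison, and the length trend and the background of low values cannot be told apart from sex in these 5 libraries.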
